A study of Mus musculus with 8 samples.

Results

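The photoreceptor outer segment is a modified cilium, and the 38 genes described here encode parts of its transport system, its base and its discs. They are subunits of the BBSome, the factors that assemble and recruit it, and subunits of the intraflagellar transport (IFT) complexes. The rest are transition zone proteins, outer segment trafficking proteins, and proteins of the discs and the axoneme. The genes were taken from a list of symbols, and a probe was assigned to a gene when the accession printed on the array design matched that gene in the RefSeq gene table. All 38 genes had a probe, 67 probes in all, out of 22911 named genes and 56605 probes on the array.

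Whole retinas of aged mice, 46 to 55 weeks old by the sample labels, were hybridized to Agilent mouse gene expression arrays with Cy3. The 4 samples labelled Mrp4-null came from mice homozygous for a knockout of Mrp4, and the other 4 were wild-type. Per the methods the knockout mice had a C57BL/6J genetic background and tissue came from 3 mice, and whether a sample pooled animals is not clear from the text. The p-values therefore measure the spread between these samples, which may be technical. In whole retina, fewer cells of a type and less RNA per cell cannot be told apart.

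In a photoreceptor, proteins of the outer segment are made in the inner segment and must pass a narrow connecting cilium, which corresponds to the transition zone of other cilia. IFT-B complexes, pulled by kinesin, carry cargo outwards, and IFT-A complexes serve the return by dynein. The BBSome is an adaptor on the IFT trains that removes membrane proteins from the outer segment. The discs are then shaped by tetraspanins at their rims. Loss of many of these genes causes retinitis pigmentosa, Leber congenital amaurosis or a syndromic ciliopathy. Cilia are also present on other retinal cells, and most of these genes are used there as well.

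Abcc4, the gene that encodes MRP4, had a normalized log2 signal of 10.84, 10.71, 10.64 and 10.80 on the arrays labelled Mrp4-null, compared with 6.62, 7.13, 6.54 and 7.02 on the wild-type ones. The targeted gene was thus higher under the knockout label, and where its probe lies relative to the disrupted part was not determined here. Directions below follow the labels as deposited, and an Mrp4-null array means an array so labelled. The arrays shared 1 slide on which each genotype filled a row, so row and genotype cannot be told apart. Between 66% and 69.9% of the probes of an array were well above background, and no spot was saturated. The 75th percentile of the signal was lowest, at 497, for the second Mrp4-null array and next lowest, at 513.8, for the third wild-type array, against 565.6 to 785.6 on the other 6. The arrays also differed in transcripts tied to sex. Xist was well above background on 4 arrays labelled Mrp4-null and on 2 wild-type arrays, and Y-linked transcripts were so on 0 arrays labelled Mrp4-null and on up to 3 wild-type arrays. The wild-type counts overlap, so a wild-type array held both Xist and Y-linked transcripts. Whether such a sample pooled animals was not tested. The part of sex in the results was not tested either.

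Every one of the 38 genes was detected in aged retina. Of the 67 probes, 64 passed the filter on dim probes, and each of the 64 was well above background on all 8 arrays. The 3 probes that did not pass were further probes of Bbs2, Rp1 and Rpgr. The tissue label was checked against photoreceptor markers. All 7 rod markers, among them Gnat1, were well above background on all 8 arrays, and so were all 5 cone markers. So too were markers of pigment epithelium, lens and blood, among them Rpe65, Cryaa and Hba-a1. The check therefore shows that photoreceptor RNA was present, not that other tissue was absent. Of 7 markers of multiciliated cells, which carry many motile cilia, 5 had a retained probe, with log2 differences of 0.0072 to 0.25 and 0 called.

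None of the 38 genes differed between the genotypes by the criteria used, a 1.5-fold change or more together with an adjusted p under 0.05 (limma with Benjamini-Hochberg adjustment over all retained probes). Limma called 0 of the 64 member probes, where it called 202 of all 37085 retained probes (0.545%), 0.256% higher and 0.289% lower under the Mrp4-null label. The local pooled error (LPE) test of the methods also called 0 member probes, against 0.626% of all probes. At an unadjusted p under 0.05 there was 1 member probe, against 6.46% of all probes. No member probe reached a 1.5-fold difference on average, which 1.88% of all probes did, and none had an adjusted p under 0.05 at any fold change, against 0.601% of all probes.

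With each gene represented by its probe of highest mean signal, 14 genes had a higher mean and 24 a lower mean under the Mrp4-null label. The median log2 difference was -0.016, against -0.0093 over all retained probes. Of the 16093 named genes with a retained probe, 46.3% were higher on average. The differences ran from -0.17 for Ift20, a fold change of 0.891, to 0.28 for Mks1, a fold change of 1.22. The median of the members was within the spread between arrays of a genotype, since the median deviation of the members on an array had a within-genotype SD of 0.092.

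The intervals show which sizes of change the arrays could exclude. For 37 of the 38 genes the 95% confidence interval of the log2 difference lay within a 1.5-fold change in both directions, and the exception was Lca5. Over the highest-signal probes of all named genes with a retained probe, 81.9% had such an interval. Of the 64 member probes 56 had one, against 77.2% of all retained probes. These intervals were not corrected for the number of genes.

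**Figure D1:**
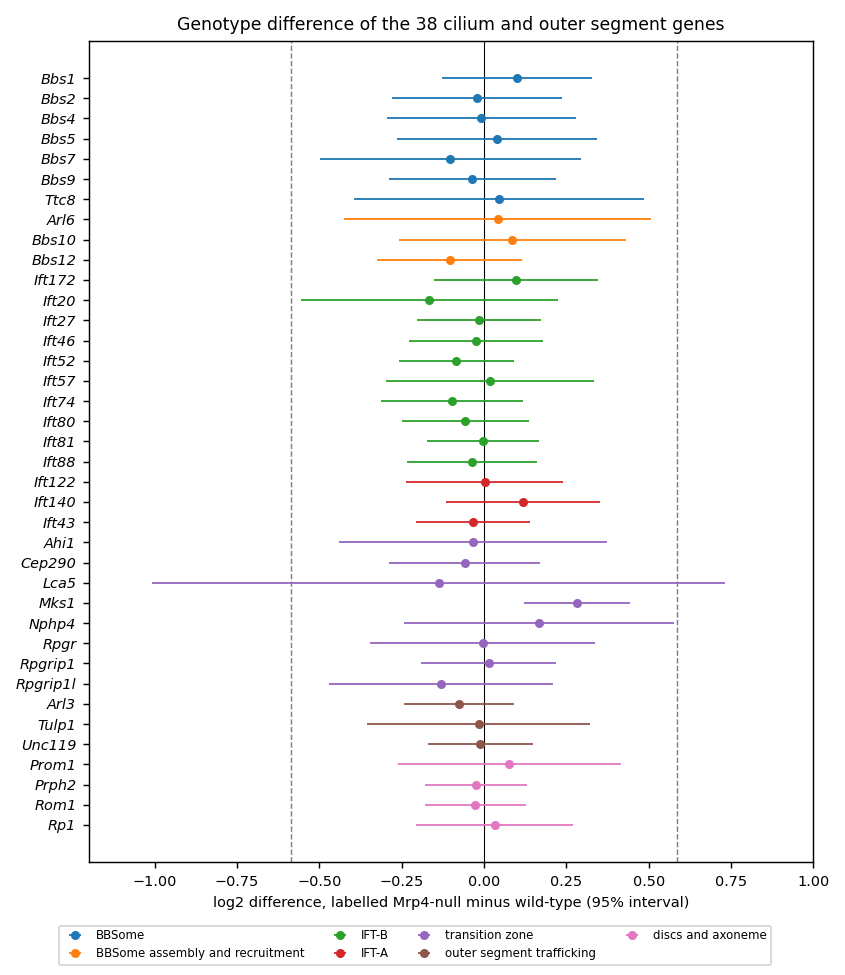
Log2 difference of each gene (arrays labelled Mrp4-null minus wild-type, x axis) for its probe of highest mean signal, with the 95% confidence interval from limma (n = 4 arrays per genotype), coloured by role. The dashed lines mark a 1.5-fold change. The interval of Mks1 does not include 0, and that of Lca5 crosses both dashed lines.

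In the transition zone, the gate at the base of the cilium, 3 genes were higher and 5 lower on average, with a median log2 difference of -0.019. Mks1, which encodes a transition zone protein that is mutated in Meckel syndrome, was the member with the largest difference. Its normalized log2 signal was 10.96, 11.08, 11.05 and 11.01 across the arrays labelled Mrp4-null, compared with 10.69, 10.81, 10.74 and 10.73 on the wild-type ones. All 4 arrays of the first group lay above all 4 of the second. Mks1 was the only one of the 64 member probes without overlap, while 4.79% of all retained probes had no overlap. The means were 11.02 ± 0.05 and 10.74 ± 0.05 (SD, n = 4), a log2 difference of 0.28 with a standard error of 0.07 and a 95% interval of 0.12 to 0.44. The adjusted p of limma was 0.23, so the difference did not pass the correction, and over the alternatives the adjusted p ranged from 0.124 with normexp background correction to 1.0 with the LPE test. Its size was 0.26 to 0.31 in each of the alternatives. The second probe of Mks1 was also higher on average, by 0.25 with a standard error of 0.15, but its arrays overlapped.

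Further transition zone genes had intervals wide enough to leave their direction undetermined. Nphp4, a nephrocystin, differed by 0.17 (95% interval -0.24 to 0.58). Rpgrip1l, which organizes the gate, differed by -0.13 (95% interval -0.47 to 0.21). Rpgr, the X-linked gene most often mutated in X-linked retinitis pigmentosa, differed by -0.0046 (95% interval -0.35 to 0.34) on arrays that also differed in Xist. Rpgrip1, which anchors RPGR in the connecting cilium, was measured more tightly by its probe of highest signal. The means of that probe were 15.65 ± 0.12 and 15.64 ± 0.09 (SD, n = 4), with a 95% interval of -0.19 to 0.22. The further retained probes of Rpgrip1 had wider 95% intervals, of -0.31 to 0.37 and -0.69 to 0.53. Cep290, whose product links microtubules to the ciliary membrane and is mutated in Leber congenital amaurosis, differed by -0.059 (standard error 0.10), and Ahi1, mutated in Joubert syndrome, by -0.033 (standard error 0.18).

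Lca5, which encodes lebercilin, a ciliary protein that binds IFT subunits, was the most variable member. It is described because of its spread, which was seen before it was chosen. Its log2 signal was 11.91, 10.45, 11.18 and 12.11 across the arrays labelled Mrp4-null, compared with 11.31, 12.04, 10.97 and 11.86 on the wild-type ones. The 8 arrays spanned 1.66 log2 units, with low values in both genotypes. The means were 11.41 ± 0.76 and 11.55 ± 0.49 (SD, n = 4), and the 95% interval of the difference reached from -1.01 to 0.73. Only 1.56% of all retained probes had a pooled SD at or above that of Lca5. A 1.5-fold change in either direction was therefore not detectable with this probe. The second Lca5 probe had a 95% interval of -0.72 to 0.08.

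Some ciliary genes carry an X-box, the site bound by RFX transcription factors, which drive cilium genes in many animals. The RFX X-box motif, a palindrome, was searched on both strands in the RefSeq promoters of GRCm38.p6, from 250 bases before to 50 bases after each start. There were 43 promoters of 34 members, and 4 members had none in the table. The X-box letters were found in 3 of the 43 (6.98%) and in 148 of all 32851 promoters (0.451%). Among promoters of the other pathway genes described below the share was similar to that of the members, at 5.88%. The member promoters that held the X-box letters belonged to Mks1 and Ahi1 of the transition zone and Bbs7 of the BBSome. All 3 are shown, Mks1 as the member with the largest difference, Bbs7 as the largest in its complex and Ahi1 as the remaining match. The X-box is in capitals with 8 bases on each side.
Mks1, chr11:87853183-87853212, plus strand, X-box beginning at position -24 from the start: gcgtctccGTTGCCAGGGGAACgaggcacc
Ahi1, chr10:20952560-20952589, plus strand, X-box beginning at position 22: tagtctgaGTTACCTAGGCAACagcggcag
Bbs7, chr3:36613489-36613518, minus strand, X-box beginning at position -121: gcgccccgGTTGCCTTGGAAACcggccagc
The matches are letters, and no binding was measured. The 3 genes differed by 0.28, -0.033 and -0.10 on the log2 scale, with standard errors of 0.07, 0.18 and 0.17. None was called, and Ahi1 and Bbs7 changed sign with some array left out. Whether the 3 genes share a direction is therefore undetermined. The shorter RFX core GTTGCCA, searched on both strands, was in 5 of the 43 member promoters (11.6%), those of Bbs1, Ift27, Ift88, Mks1 and Nphp4. It was in 19.6% of the promoters of the other pathway genes and in 4.38% of all promoters. In Mks1 it overlaps the X-box. The letters TAATCC, a site of the photoreceptor factor CRX, were in 6.98% of the member promoters and in 7.06% of all promoters on either strand.

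In the BBSome, 3 subunit genes were higher and 4 lower on average, with a median log2 difference of -0.0079. Bbs7 had the largest difference of the complex. Its log2 signal was 13.53, 12.90, 13.19 and 13.61 across the arrays labelled Mrp4-null, compared with 13.27, 13.57, 13.18 and 13.62 on the wild-type ones. The groups overlapped, and the lowest value was that of the second Mrp4-null array. The difference was -0.10 with a standard error of 0.17. Bbs1, often mutated in Bardet-Biedl syndrome, differed by 0.10 (standard error 0.10), Ttc8 by 0.046 (standard error 0.19) and Bbs4 by -0.0079 (standard error 0.13). The other subunits were Bbs2 at -0.021 (standard error 0.11), Bbs5 at 0.040 (standard error 0.13) and Bbs9 at -0.036 (standard error 0.11).

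The factors that build and place the BBSome were close to 0 in their median too, at 0.041. Bbs12, a chaperonin-like protein needed to assemble the complex, was at 11.04, 10.80, 11.16 and 10.93 on the arrays labelled Mrp4-null, compared with 11.21, 11.07, 11.06 and 11.01 on the wild-type ones. These values overlapped, and the difference was -0.10 with a standard error of 0.10. Bbs10, another chaperonin-like gene, differed by 0.086 (standard error 0.15), and Arl6, the small GTPase that recruits the BBSome to membranes, by 0.041 (standard error 0.20).

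Of the 10 IFT-B genes, 8 were lower and 2 higher on average, with a median of -0.031, and none passed the test. Ift20, which also acts at the Golgi in sending cargo to the cilium, had the largest difference. Its log2 signal was 12.77, 12.26, 12.22 and 12.69 across the arrays labelled Mrp4-null, compared with 12.42, 12.88, 12.44 and 12.85 on the wild-type ones. Each genotype held high and low arrays, and the difference was -0.17 with a standard error of 0.17. Ift88, a core subunit required to build the outer segment, differed by -0.037 (95% interval -0.23 to 0.16). Ift81, which with Ift74 binds tubulin, differed by -0.0043 (95% interval -0.17 to 0.17). The other genes lower on average were Ift27, a GTPase-like subunit, at -0.016, Ift46 at -0.026, Ift52 at -0.084, Ift74 at -0.098 and Ift80 at -0.057. Ift172 at 0.10 and Ift57 at 0.018 were the genes higher on average.

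The IFT-A genes had a median of 0.0015. Ift140, a core subunit, was at 11.35, 11.56, 11.37 and 11.21 on the arrays labelled Mrp4-null, compared with 11.27, 11.13, 11.44 and 11.18 on the wild-type ones. The ranges overlapped and the difference was 0.12 with a standard error of 0.10. Ift122 differed by 0.0015 (standard error 0.11) and Ift43 by -0.033 (standard error 0.08).

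**Figure D2:**
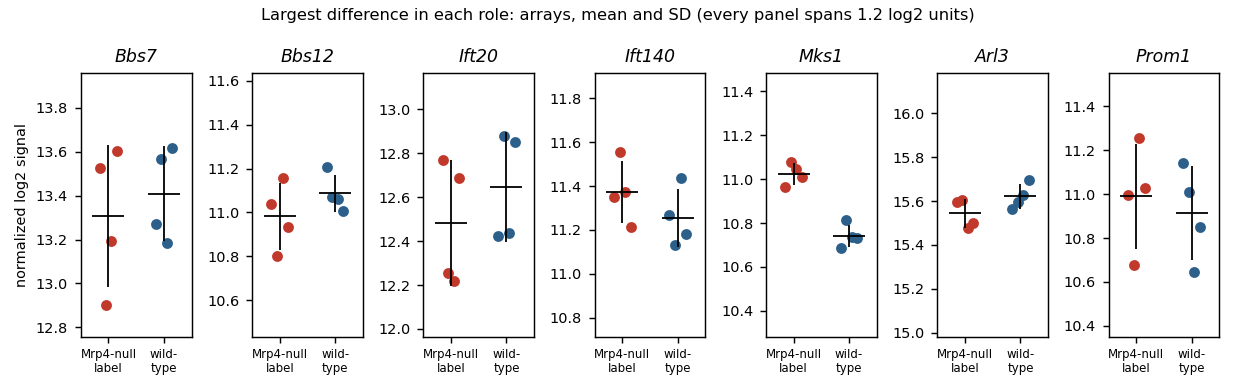
Normalized log2 signal (y axis) of the gene with the largest difference in each role, 1 point per array, with the mean and SD of 4 arrays in black. Only in Mks1 do the arrays labelled Mrp4-null all lie above the wild-type arrays.

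The outer segment trafficking genes, Arl3, Unc119 and Tulp1, were each slightly lower on average. Arl3 is the small GTPase that releases lipid-modified proteins from their carriers in the cilium. It was at 15.60, 15.61, 15.48 and 15.50 on the arrays labelled Mrp4-null, compared with 15.56, 15.60, 15.63 and 15.70 on the wild-type ones. The groups overlapped and the difference was -0.077 with a standard error of 0.07. Unc119, a carrier of the rod transducin alpha subunit, differed by -0.011 (95% interval -0.17 to 0.15). Tulp1, a tubby-like protein of photoreceptors, differed by -0.017 (95% interval -0.36 to 0.32).

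The disc and axoneme genes had a median of 0.0040. Prph2 and Rom1, the tetraspanins of the disc rim, had the smallest spread of all members. Prph2 had means of 17.18 ± 0.01 and 17.20 ± 0.05 (SD, n = 4), and Rom1 had means of 17.37 ± 0.04 and 17.40 ± 0.04 (SD, n = 4). Their differences were -0.024 and -0.027, each with a standard error of 0.07. This tightness changed with the normalization. Only 0.0944% of the retained probes had a higher mean signal than Prph2 and 0.0458% a higher one than Rom1, and the quantile method gives the highest ranks the same values on every array. The pooled SD of Prph2 was 0.038 after quantile normalization, 0.13 after cyclic loess and 0.23 after a shift to the 75th percentile, and the same order held for Rom1 with 0.039, 0.084 and 0.19. For Mks1, in contrast, these values were 0.051, 0.052 and 0.048. Under cyclic loess Prph2 and Rom1 were higher on the arrays labelled Mrp4-null, by 0.0205 and 0.0365.

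Prom1, which encodes a membrane protein needed to form discs, had the largest difference of this role. It was at 10.996, 10.68, 11.26 and 11.03 on the arrays labelled Mrp4-null, compared with 11.14, 11.01, 10.65 and 10.85 on the wild-type ones. The values overlapped and the difference was 0.077 with a standard error of 0.15. Rp1, a microtubule-associated protein of the axoneme, had means of 15.04 ± 0.18 and 15.003 ± 0.08 (SD, n = 4).

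The spread between arrays was not the same in all roles. The median pooled SD of the log2 signal was 0.061 in the trafficking genes, 0.090 in the disc and axoneme genes, 0.10 in IFT-B, 0.14 in IFT-A, 0.18 in the BBSome, 0.23 in the transition zone and 0.23 in the BBSome assembly genes. After cyclic loess the trafficking genes were still lowest at 0.093, followed by IFT-B at 0.10, the disc and axoneme genes at 0.13, IFT-A at 0.14, the BBSome at 0.19, the assembly genes at 0.23 and the transition zone at 0.23. After a shift to the 75th percentile the medians were 0.19 in the trafficking genes and 0.21 in the disc and axoneme genes, above IFT-B at 0.11, IFT-A at 0.13 and the BBSome at 0.16, while the transition zone and the assembly genes were at 0.22 and 0.21.

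Part of this spread lay with single arrays. By the highest-signal probe of each gene, the second Mrp4-null array was the lowest of the 8 in 19 of the 38 members and the highest in 3. The other 26 member probes went the other way, with this array the lowest in 4 and the highest in 10. Over all 64 member probes it was the lowest in 23 (35.9%) and the highest in 13 (20.3%), against 24% and 23.6% of all retained probes. By the highest-signal probes, the median member deviated by -0.19 on that array and by -0.066 on the third wild-type array. On the fourth Mrp4-null array it deviated by 0.099. Over all named genes with a retained probe these medians were -0.028, -0.028 and 0.0098. The fourth Mrp4-null array was the highest in 12 of the 38 members by these probes, in 2 of the other 26 probes and in 14 of all 64 (21.9%), against 14% of all retained probes. Both arrays with low members also had the lowest 75th percentiles of signal. Their part in the differences was not tested beyond leaving them out. Without the second Mrp4-null array the median difference was 0.040, and without the fourth it was -0.040. Without the second Mrp4-null array and the third wild-type array together it was -0.0031. Limma called 0 members in each of these fits.

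**Figure D3:**
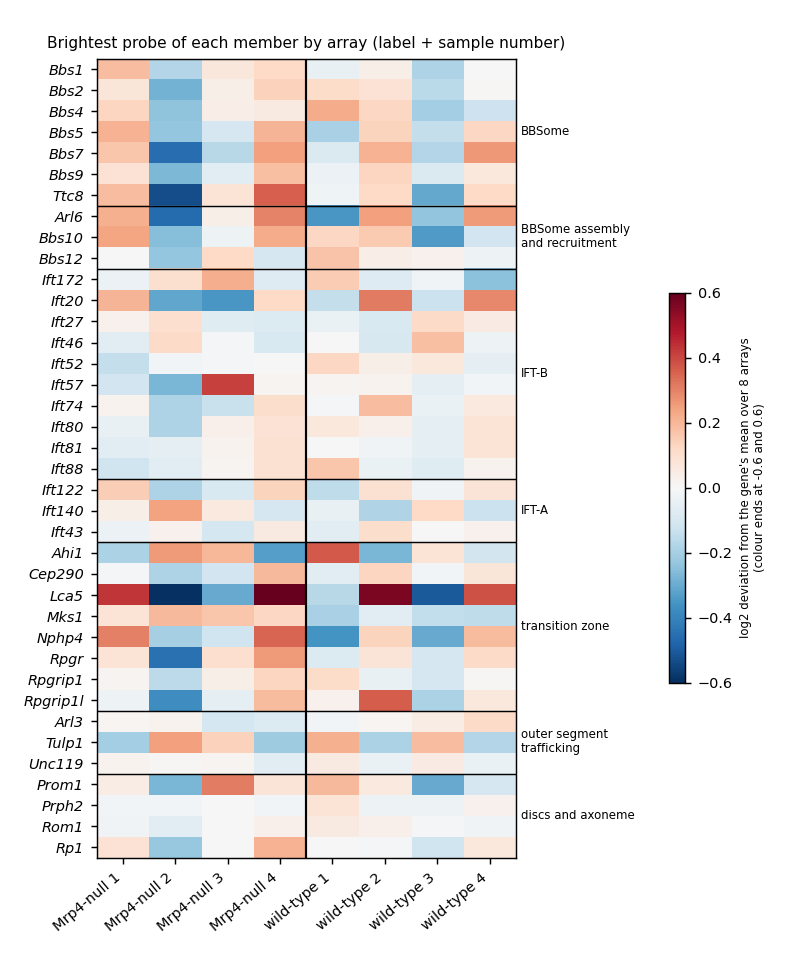
Log2 deviation of each gene's highest-signal probe from its mean over 8 arrays (colour, ending at -0.6 and 0.6), with genes in rows grouped by role and arrays in columns. The column of the second Mrp4-null array is blue in each of the BBSome and assembly genes, and Lca5 varies most.

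Probes of the same gene did not always follow each other across arrays. There were 21 genes with more than 1 retained probe, and in 5 of them, Ift52, Prom1, Rpgr, Rpgrip1 and Unc119, the probes differed in the sign of the genotype difference. Compared with the probe of highest signal, a further probe formed 26 pairs. In 11 pairs of 10 genes the first probe was low and the other high, relative to its own mean, on both the second Mrp4-null array and the third wild-type array. The opposite was seen in 2 pairs, both probes moved the same way in 10, and 3 were mixed. Over the retained probes of all named genes, 1566 of 7554 pairs (20.7%) had the first pattern. It was noticed after the values were seen, and no test was made.

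In Prom1 the probe of highest signal deviated by -0.28 and -0.31 on these arrays, and the other probe by 0.86 and 0.57. In Bbs7 the deviations were -0.46 and -0.18 against 0.43 and 0.43, and in Rpgrip1l they were -0.37 and -0.19 against 0.49 and 0.41. In Lca5 they were -1.03 and -0.51 against 0.19 and 0.16. The genotype difference of the second Lca5 probe was -0.32 with a standard error of 0.18, and its adjusted p was 0.93 in limma. The second probe of Prom1 had a genotype difference of -0.024 with a standard error of 0.36.

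**Figure D4:**
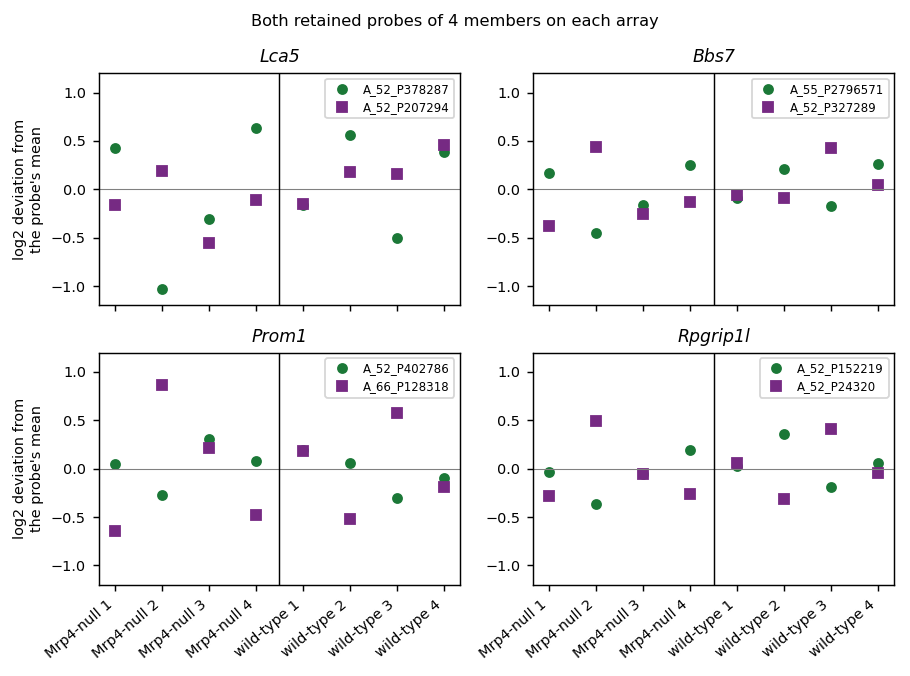
Log2 deviation of both retained probes of 4 genes from their own mean (y axis) on each array (x axis), with 1 marker shape and colour per probe. On the second Mrp4-null array and the third wild-type array, 1 probe of each gene lies below 0 and the other above.

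On chromosomes 4, 8 and 14, limma called 92 of 3571 named probes (2.58%), against the 0.545% of all retained probes. The 6 members on these chromosomes were not among them. Ift74 and Nphp4 on chromosome 4 differed by -0.098 and 0.17, Bbs2 and Rpgrip1l on chromosome 8 by -0.021 and -0.13, and Ift88 and Rpgrip1 on chromosome 14 by -0.037 and 0.014. The arrays of the genotypes overlapped in each of the 6.

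None of the other genes of the pathway was called either. The 51 genes included further BBSome partners, IFT subunits, kinesin and dynein subunits, tectonic and nephrocystin genes, lipidated cargo trafficking genes and axoneme genes. All 51 had a retained probe, and limma called 0 higher and 0 lower. The LPE test called 0 as well, and 0 of their 79 retained probes had an unadjusted p under 0.05, against 6.46% of all retained probes. The median difference was -0.040, with 17 genes higher and 34 lower on average, and the lowest difference was -0.27. The 95% interval lay within a 1.5-fold change in 46 of the 51, against 81.9% over all named genes with a retained probe. The arrays did not overlap in 1 of the 79 probes, against 4.79% of all retained probes. It was the second probe of Tctn1, named after its values were seen, with a difference of 0.13 and a standard error of 0.07.

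The levels of marker genes were set beside these values. The 7 rod markers had differences of -0.14 to 0.24 with a median of 0.0064, and the 5 cone markers had differences of -0.21 to 0.34 with a median of -0.033. Limma called 0 in both lists. All 7 lens markers had lower means under the Mrp4-null label, with log2 differences of -2.44 to -1.34. Limma called 0 of their 10 retained probes, and the LPE test called 10. The cilium and outer segment genes had no shift of that size in any role.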

How the data were processed

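Expression was measured in 8 retinal samples on one-color Agilent arrays. The authors deposited the signal intensity of every spot, from which Feature Extraction 11.0.1.1 had subtracted background and spatial trends per the file headers, with no normalization between arrays, and a series table of the mean intensity of each probe. Members and gene lists were chosen with earlier results of these data known.

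Controls and outlier spots were dropped before the log2 intensity was averaged per probe. A probe counted as well above background when a share of at least 0.5 of its kept spots was. Probes that were so on all measured arrays of a genotype, with 3 or more arrays measured in it and 2 or more in the other, were retained (37085 of 56605) and quantile-normalized. Accessions named 32994 probes (58.3%) through the RefSeq table of GRCm38.p6. The array design carries an older build, so its coordinates were not used. R 4.3.3 with limma 3.58.1 (lmFit, eBayes, genotype only) and the data.table package (version 1.17.8) were used, with Benjamini-Hochberg adjustment over all retained probes, and the test was checked on simulated data. The LPE test was written for this work, with intensity bins of 0.01 of the values and a spline of 10 degrees of freedom. Precision is limited by the number of arrays.

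Any member could be named. Values of every array are given for members called, without overlap, at a fold change of 1.5 or more, or with the largest difference in their role, and for Lca5, chosen for its spread after its values were seen. Other pathway genes were named if called, or if without overlap at that fold change, apart from Tctn1, which was named after its values were seen. Alternatives were cyclic loess, scaling to the 75th percentile, normexp with an offset of 50 on the median spot intensity, other filters, outlier spots kept, the deposited table, an intensity trend with robust variances, LPE, a replicate block, other thresholds, the mean of a gene's probes, and arrays left out.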

Additional observations from a re-analysis of the deposited data

Results flagged for a closer look

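In 80 groups of 4 arrays, which were the values of each member, the 75th percentile of the signal and the mean of the members in each genotype, the distance of the highest or lowest array from its nearest neighbour was set against the range of the group. It exceeded Dixon's critical value for 4 arrays in 3 groups, and chance gives about 1 in 20. Ift52 was at 10.18 on the first Mrp4-null array, while the other 3 were between 10.31 and 10.32, a share of 0.887 of the range. Unc119 was at 16.84 on the fourth Mrp4-null array, while the others were between 16.92 and 16.93, a share of 0.838. Prph2 was at 17.19 on the third Mrp4-null array and at 17.18 on the other 3, a share of 1.0. For Prph2 and Unc119 the whole range was at most 0.1 log2 units, and both lie among the highest signals, where quantile normalization narrows the spread.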

How the results depend on the processing

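Limma called 0 of the 38 genes under each alternative tried with it, as did the LPE test, and 0 passed a fold change of 1.5 without a test or an adjusted p under 0.05 without a fold change. The median difference of the members was -0.016 and lay between -0.0214 and -0.0031 under the alternatives other than single arrays left out, and between -0.0396 (without the fourth Mrp4-null array) and 0.0396 (without the second) with 1 array left out. The number of genes with an interval within a 1.5-fold change was between 34 and 37 of 38 in the limma fits. The count of all probes called was 202, and it moved by over 1.5 times to 71 with the replicate block, to 699 without a test, to 129 and 117 without the third and the fourth wild-type array, to 131 without the second, and to 128 without both arrays of lowest signal, an alternative chosen after seeing the data. The sample numbers did not pair the samples: correlations of same-numbered arrays were -0.29, -0.685, 0.034 and 0.409, and 0 of 4 matched their own number best. With the replicate block 0 members were called and the adjusted p of Mks1 was 0.822. The block cannot move the differences in this balanced design, so the median is -0.0163 by construction.

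The block, the LPE test and the variance trend leave each gene's difference as it is. Of 304 differences of single genes under 8 other alternatives, apart from single arrays left out, 287 kept their sign and 17 did not. With a shift to the 75th percentile Ift122 became -0.0165 and Rpgrip1 -0.0197. With cyclic loess Bbs4 became 0.0004, Ift122 -0.0038, Prph2 0.0205, Rom1 0.0365 and Unc119 0.0218. With normexp Bbs2 became 0.0009, Ift122 -0.01, Ift27 0.0181, Ift81 0.0069, Rpgr 0.0042 and Unc119 0.0098. Without both arrays of lowest signal Bbs2 became 0.013, Bbs4 0.003, Bbs9 0.012 and Rpgr 0.109. With 1 array left out, 16 genes kept their sign throughout. Mks1 ranged from 0.2649 to 0.3066, but each of the others moved by over 1.5 times without some array, among them Ift20 (-0.2628 to -0.0773), Nphp4 (0.0771 to 0.2637), Cep290 (-0.1329 to -0.0074), Ift80 (-0.0964 to -0.0044) and Rpgrip1l (-0.2168 to -0.0296). The other 22 changed sign, with ranges of Ahi1 (-0.1304 to 0.0842), Arl6 (-0.0678 to 0.2002), Bbs10 (-0.0133 to 0.1871), Bbs2 (-0.078 to 0.0705), Bbs4 (-0.0771 to 0.072), Bbs5 (-0.0224 to 0.1233), Bbs7 (-0.2023 to 0.0314), Bbs9 (-0.1017 to 0.0477), Ift122 (-0.0501 to 0.0632), Ift27 (-0.0523 to 0.0203), Ift46 (-0.0673 to 0.0303), Ift57 (-0.1161 to 0.1118), Ift81 (-0.0366 to 0.022), Ift88 (-0.0733 to 0.0127), Lca5 (-0.372 to 0.1827), Prom1 (-0.0124 to 0.1825), Rp1 (-0.0313 to 0.114), Rpgr (-0.0908 to 0.1429), Rpgrip1 (-0.0283 to 0.0668), Ttc8 (-0.0663 to 0.2323), Tulp1 (-0.102 to 0.052) and Unc119 (-0.0278 to 0.0088). The cause was not tested. No gene that changed sign was called.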
